A study of Mus musculus with 3 samples.

Results

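The renin-angiotensin genes described here are *Agt*, *Ace*, *Enpep*, *Agtr1a* and *Agtr2*, the 5 genes of 28692 in the expression matrices that were selected by symbol for this pathway. Their transcripts were counted by scRNA-Seq in whole lungs of 3 wild-type C57BL/6 mice at P14, all kept in room air (RA) from postnatal day 1 to 14. The mice, numbered 2, 3 and 4, are replicates of 1 condition, so every comparison below is between cell types of the same lungs and none is between treatments. For each mouse 1 well was loaded with 16000 freshly dissociated cells according to the sample labels, where the study's methods give another number, and cells lost in dissociation or droplet capture were not measured. The series text gives 5677 cells for the study, whereas the matrices held 9644 barcodes, of which the 7642 with 200 genes or more and no more than 20% of UMIs from mitochondrial genes were used. A UMI (unique molecular identifier) marks 1 captured transcript.

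The mice contributed 2386 to 2655 cells each, with 20804836 to 23442355 UMIs and median depths of 4853 to 7119 UMIs per cell. Between 1 and 4 of the barcodes kept were shared by any pair of mice. Clustering without the 5 genes gave 30 clusters. Markers placed 25 of them in 21 types, each named here as a likeness and not as a proven identity, and 811 cells in 5 clusters had no name. Some names are approximate. Of the myofibroblast-like clusters, the one led by *Pdgfra* had a mean log2 fold of 1.52 over the myofibroblast markers, against 3.34 in the one led by *Aspn*. The venous-like cluster also had the lymphatic-type genes *Ccl21a* and *Mmrn1* among its leading genes, the Col14a1-type fibroblast cluster held 21 cells of 100 with cartilage collagen or aggrecan UMIs, and in the C1q-led cluster, which carried the interstitial macrophage markers, only 24 of 114 cells had a C1q UMI. The share of cells in the immune class varied most, at 39.4% ± 13.9 (SD, n = 3), against 12.6% ± 3.38 endothelial, 17.1% ± 4.76 epithelial and 20.2% ± 3.66 stromal cells.

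The renin-angiotensin system is a cascade of peptide cleavages. Renin cuts angiotensinogen, the product of *Agt*, to angiotensin I. Angiotensin-converting enzyme, the product of *Ace*, then removes the last pair of residues to give angiotensin II, and the lung vascular bed is a classic site of this step. Aminopeptidase A, the product of *Enpep*, removes the first residue of angiotensin II. Angiotensin II acts on the type 1 receptor, encoded in mice by *Agtr1a* and *Agtr1b*, which raises vascular tone, and on the type 2 receptor, encoded by *Agtr2*, which is best known from developing tissues.

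The coding sequence shows what substrate and enzymes hold. In the GENCODE M21 transcripts (GRCm38), the hormone is encoded near the start of the *Agt* reading frame, in exon 2 at chr8:124564450-124564479 on the minus strand. The capitals mark codons 30 to 37, which encode the 8 residues of angiotensin II, and the lower-case bases are the pair of codons that complete angiotensin I and whose residues ACE removes.
Agt: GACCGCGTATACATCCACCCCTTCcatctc

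Both enzymes are zinc metallopeptidases, and the capitals below mark the codons of the zinc-binding motif HEXXH (histidine, glutamate, any pair of residues, histidine). *Ace* has it in both catalytic domains, in exon 8 at chr11:105972904-105972933 and in exon 20 at chr11:105985088-105985117, both on the plus strand. *Enpep* has it once, on the minus strand, wholly in exon 5. The window shown runs from there (chr3:129309769-129309792) into exon 6 (chr3:129309130-129309135), so that its last 6 bases are of exon 6.
Ace, codons 395 to 399: gtacacCACGAGATGGGCCACgtgcagtac
Ace, codons 993 to 997: gcgcacCACGAAATGGGCCACatccagtat
Enpep, codons 385 to 389: gttgccCACGAACTTGTACACcagtggttt

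The windows from *Ace* shared 24 of 30 bases. The libraries were read from the 3′ ends of transcripts, so the counts below come from near the ends of these genes and not from these windows, and a count cannot tell an isoform with both *Ace* domains from one with a single domain. *Ace* (ENSMUSG00000020681) lies at chr11:105967945-105989964 and has 25 exons, and the gene Gm11651 overlaps it on the other strand. *Agt* (ENSMUSG00000031980), at chr8:124556534-124569706, has 5 exons, and *Enpep* (ENSMUSG00000028024), at chr3:129269175-129332720, has 20. The receptor genes *Agtr1a* (ENSMUSG00000049115; chr13:30336441-30382867) and *Agtr2* (ENSMUSG00000068122; chrX:21484544-21489164) have 3 exons each, and the gene Gm48161, which the matrices do not list, overlaps *Agtr1a* on the same strand. *Agtr1a* and *Agtr1b* encode near-identical receptors, and reads shared by them would be missing from both counts. Whether their 3′ ends are alike enough to share reads was not tested.

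The 5 genes differed widely in depth. The cells used held 9710 *Ace* UMIs, 7272 of *Agt*, 6486 of *Enpep*, 359 of *Agtr1a* and 27 of *Agtr2*. All 5 were detected, and each had its highest level in a different cell type. *Agt* was highest in myofibroblast-like cells, *Ace* in arterial-like ECs, *Enpep* in Col13a1-type fibroblast-like cells, *Agtr1a* in pericyte-like cells and *Agtr2* in Col14a1-type fibroblast-like cells. Levels are given as CPM, the gene's UMIs scaled to a common total of all UMIs, over the summed cells of a type in 1 mouse. They compare a gene between cell types, not one gene with another. Fold values are ratios of mean CPM, whereas log2 differences come from the edgeR fit with its own scaling, so a fold and its log2 difference need not match. Intervals and floors cover counting error only. The edgeR p-values rest on the spread between the 3 mice within groups, estimated jointly over all groups in the fit. Sums from the same mouse were treated as independent in the main fit. Each SE is the absolute log2 difference divided by the square root of the test's F value, and is not estimated by the fit itself.

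**Figure D1:**
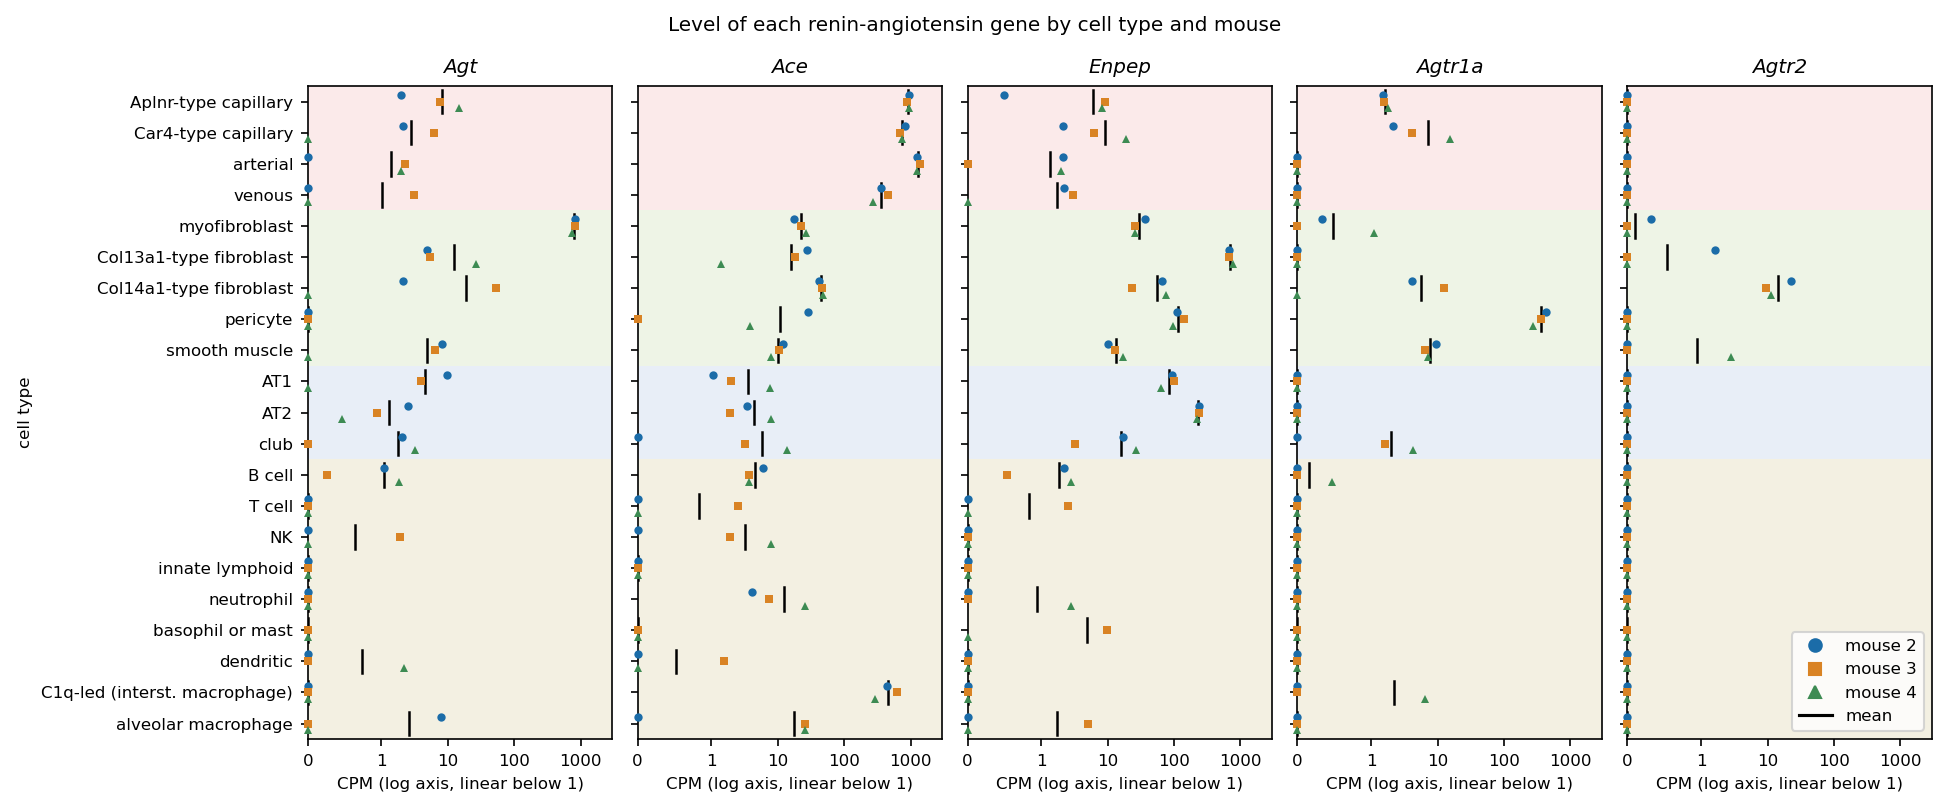
Level of each gene in the 21 cell types, as CPM in each mouse (points) and the mean of 3 mice (bar), on a symmetric log axis that is linear below 1 CPM. Myofibroblast-like cells stand alone for *Agt* (797 CPM), ECs lead for *Ace*, Col13a1-type and AT2-like cells lead for *Enpep* (706 and 231 CPM), and pericyte-like cells lead for *Agtr1a* (358 CPM).

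*Agt*, the substrate, was almost wholly a transcript of the myofibroblast-like cells. Its level in the 806 myofibroblast-like cells was 831 CPM in mouse 2, 809 in mouse 3 and 752 in mouse 4 (797 ± 40.9, SD, n = 3). No other type overlapped that range. These cells held 97.0% ± 1.11 of all *Agt* UMIs, and the stromal class as a whole 98.2% ± 0.272. At the level of classes *Agt* was 404 ± 42.6 CPM in stromal cells against 5.54 in ECs, 1.68 in epithelial and 0.808 in immune cells (edgeR, ECs against stromal cells, log2 difference −6.28, SE 0.29, adjusted p = 8.06e-11, with 55.7% of 14200 genes called). Without marked doublets that difference was −7.45, and without mouse 4 it was −6.97. Stromal cells exceeded epithelial cells by 7.47 (SE 0.30, adjusted p = 1.08e-11, with 67.3% of genes called; 9.03 without marked doublets and 8.46 without mouse 2) and immune cells by 8.95 (SE 0.37, adjusted p = 9.57e-12, with 76.4% of genes called). An *Agt* UMI was found in 97.8% ± 0.723 of the myofibroblast-like cells (median 8 UMIs per cell, quartiles 4 and 12), against 0.471% of B-cell-like cells, whose share serves as the background because B cells are not a source of angiotensinogen. Myofibroblast-like cells were deeper, with a median of 10661.5 UMIs against 3960.5 in B-cell-like cells. In cells with at least 1000 UMIs, each thinned to 1000 UMIs, the shares were 51.8% ± 2.09 and 0.112%. Shallower cells are left out of every thinned share below, whereas the shares as counted cover all cells.

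Among fibroblasts, *Agt* was 64.6-fold higher in myofibroblast-like than in Col13a1-type cells (12.4 ± 12.5 CPM; edgeR, log2 difference 5.93, SE 0.38, adjusted p = 1.77e-17). Of the 12370 genes tested between these types 29.3% were called. Of the 27 *Agt* UMIs in Col13a1-type cells 19 came from mouse 4, and without that mouse the difference was 7.20. Against Col14a1-type cells it was 43.1-fold higher (log2 difference 4.94, SE 0.38, adjusted p = 7.29e-15), where 24.2% of genes were called. The low level in Col14a1-type cells rested on few cells, because all 35 *Agt* UMIs there were in cells with cartilage-gene UMIs and 32 of them in 1 cell. Mouse 3 held 34 of the 35, and without that mouse, with 1 UMI left, the fitted difference was 9.04. None of the 135 pericyte-like cells had an *Agt* UMI, which allows up to 4.77 CPM (95% exact Poisson limit). The mean of the mural types, pericyte-like and smooth muscle-like, was lower than that of the 3 fibroblast types (log2 difference −6.23, SE 0.92, adjusted p = 4.02e-07, with 24.7% of genes called). Without mouse 3 this was −5.15 with adjusted p = 0.187, under a stricter cell filter (500 genes or more, no more than 10% mitochondrial) −2.63 with adjusted p = 1.89e-04, at resolution 1.2 −4.76 and under DESeq2 −4.95. The difference does not hold for each type. The smooth muscle-like range (0 to 8.05 CPM) overlapped those of Col13a1-type (4.88 to 26.8 CPM) and Col14a1-type cells (0 to 53.4 CPM).

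**Figure D2:**
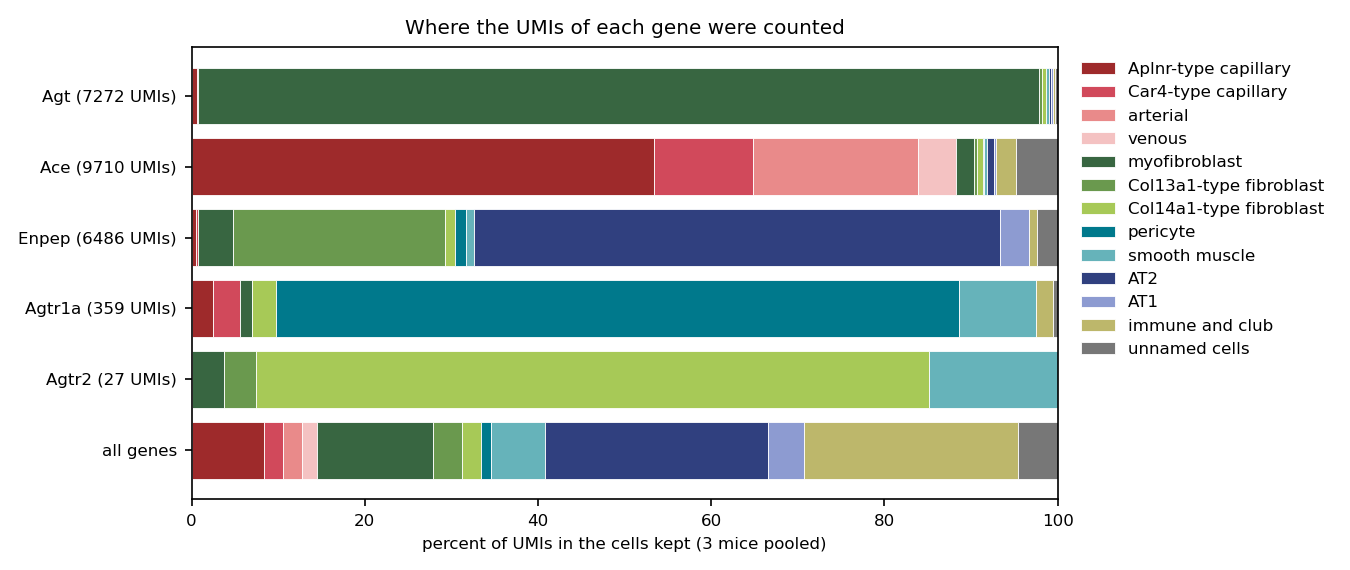
Share of each gene's UMIs (percent, 3 mice pooled) found in each cell type, with the share of all UMIs as the last bar. Myofibroblast-like cells hold 97.1% of *Agt* and pericyte-like cells 78.8% of *Agtr1a*, whereas *Ace* is divided among the endothelial types and *Enpep* mainly between AT2-like and Col13a1-type cells.

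*Ace*, the converting enzyme, was highest in the endothelial class. Its level in the endothelial class was 889 ± 5.14 CPM (882.7 to 892.2 over the 3 mice), against 20.2 ± 0.726 in stromal, 15.9 ± 1.26 in immune and 4.41 ± 3.49 in epithelial cells. ECs made up 12.6% of the cells and held 88.1% ± 1.78 of the *Ace* UMIs. They exceeded stromal cells 44.1-fold (log2 difference 5.35, SE 0.22, adjusted p = 2.00e-11; 55.7% of 14200 genes called), immune cells 55.9-fold (5.57, SE 0.23, adjusted p = 1.06e-11; 69.4% called) and epithelial cells 202-fold (7.07, SE 0.25, adjusted p = 2.64e-12; 66.4% called). The epithelial difference was 8.14 without marked doublets and 7.97 without mouse 4, and the immune difference 6.29 under the stricter filter. So large a share of genes separates these classes that a call by itself says little, and the size of the difference is the result.

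Within the endothelium the order was the same in each mouse for the leading types. Arterial-like ECs had 1268, 1386 and 1231 CPM in mice 2, 3 and 4 (1295 ± 80.9). The Aplnr-type capillary cells, which carry *Aplnr*, *Kit* and *Gpihbp1*, had 938, 890 and 962 CPM (930 ± 36.5). The Car4-type capillary cells, which carry *Car4* and *Ednrb* and are known for lying close to the alveolar epithelium, had 817, 697 and 733 CPM (749 ± 61.7). Neighbours in this order did not overlap between mice. Venous-like ECs were lowest, at 364, 459 and 271 CPM (364 ± 93.9). By number of UMIs the Aplnr-type capillary cells held the most *Ace*, 52.6% ± 7.50 of it, followed by arterial-like ECs with 19.4% ± 3.38 and Car4-type capillary cells with 11.6% ± 1.32.

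The difference between the capillary types did not pass the test (log2 difference 0.35, SE 0.23, adjusted p = 0.450, with 8.36% of genes called), although their ranges did not overlap. The exact two-sided permutation p for 3 values against 3 was 0.1, the smallest it can give. With cells marked as likely doublets removed the difference was 0.51 with adjusted p = 0.0247, and with only those types in the fit it was 0.29 with adjusted p = 0.0441. Capillary cells against arterial-like and venous-like ECs gave 0.23 (SE 0.17, adjusted p = 0.392), where 22.4% of genes were called, so that high arterial and low venous levels averaged to near the capillary level.

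Most capillary cells had an *Ace* UMI, in 94.7% ± 2.56 of Aplnr-type and 70.5% ± 12.8 of Car4-type cells, against 1.49% of B-cell-like cells. The median Aplnr-type cell had 7 UMIs and the median arterial-like cell 10. Detection moved with depth. Of the 123 Car4-type cells with at least 1000 UMIs, 104 (84.6%) had *Ace*, but only 15 of the 48 shallower ones did. Thinned to 1000 UMIs, the shares were 71.6% ± 1.03 in arterial-like, 58.9% ± 2.70 in Aplnr-type, 44.6% ± 1.27 in Car4-type and 30.3% ± 4.36 in venous-like ECs, and 0.364% in B-cell-like cells.

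**Figure D3:**
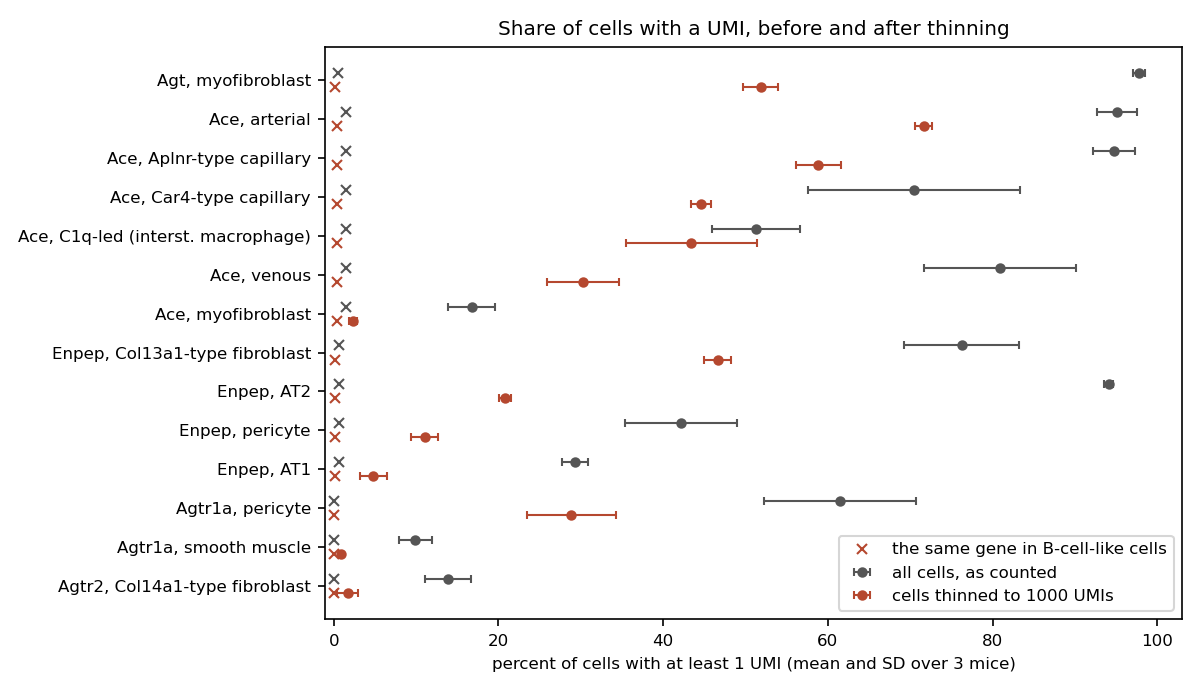
Percent of cells with at least 1 UMI of each gene (mean ± SD of 3 mice), as counted in all cells and after thinning to 1000 UMIs. Cells with under 1000 UMIs are left out of the thinned shares. Crosses give the same gene in B-cell-like cells, which lie near 0 for all 5 genes (1.49% as counted for *Ace*).

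Outside the endothelium, *Ace* appeared in a set of immune cells and at a low level in stroma. The C1q-led cluster had 444, 625 and 286 CPM (452 ± 170) and overlapped the venous-like ECs. Its 90 cells without a C1q UMI held 150 of its 156 *Ace* UMIs, at 566, 1139 and 454 CPM in mice 2, 3 and 4. That range overlapped those of both capillary types. The 24 cells with a C1q UMI held 6 *Ace* UMIs, all in 1 cell. Of the 114 cells of the cluster, 58 had *Ace*. In those 58 cells the 6 markers of nonclassical monocytes, the patrolling monocytes of blood vessels, summed to 5338 CPM (5203 to 5669 over the mice), with *Treml4* in 51.7%, *Spn* in 60.3% and *Ear2* in 79.3% of cells. In the 56 cells without *Ace* the same list summed to 790 CPM and *Treml4* was in 10.7%. The sum of the 7 interstitial macrophage markers ran the other way, at 2447 CPM in the cells with *Ace* against 22700 CPM in those without. In the cells with *Ace*, *C1qa*, *C1qc*, *Ms4a7* and *Pf4* were at 0. *Csf1r*, of the same list, differed little. It was at 1014 CPM in 87.9% of the cells with *Ace* and at 1134 CPM in 78.6% of those without. The 6 endothelial class markers summed to 137 CPM in the cells with *Ace*, with *Cdh5* and *Egfl7* at 0. The cells with *Ace* were shallow, with a median of 1534 UMIs against 3518.5. The stricter cell filter removed 42 of the 58. Cells were then clustered and named anew, and the type of that name, which need not hold the same cells, was at 39.4 CPM. These splits, by C1q UMIs and by *Ace* itself, are a description with no test.

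In stroma *Ace* was 45.0 ± 3.10 CPM in Col14a1-type, 22.1 ± 4.67 in myofibroblast-like, 15.8 ± 13.3 in Col13a1-type and 10.1 ± 2.16 in smooth muscle-like cells. Myofibroblast-like cells had less than Col14a1-type cells (log2 difference −1.17, SE 0.40, adjusted p = 0.0241), a call that was lost under DESeq2 and without mouse 2 or mouse 3. Col13a1-type cells had less than Col14a1-type cells too (−1.57, SE 0.50, adjusted p = 0.0171, with 21.1% of genes called), also lost under DESeq2 and without mouse 3 or mouse 4. Without marked doublets it was −4.53 (adjusted p = 1.24e-09). In Col13a1-type cells 31 of 35 *Ace* UMIs were in 4 cells marked as likely doublets. Myofibroblast-like cells differed from them by 0.40 (SE 0.45, adjusted p = 0.577) with those cells and by 3.23 (adjusted p = 3.20e-06) without. Mural against fibroblast types gave −1.10 (SE 0.40, adjusted p = 0.0357), and −1.29 (adjusted p = 0.0957) without marked doublets. It was −2.32 (adjusted p = 0.0235) without mouse 2, −0.89 (adjusted p = 0.252) without mouse 3 and −2.13 under the stricter filter. In pericyte-like cells 9 of 11 *Ace* UMIs were in 1 such cell. The stromal class exceeded the epithelial class (log2 difference 1.72, SE 0.28, adjusted p = 7.12e-05), by 2.54 without marked doublets and by 2.65 without mouse 4. Against the immune class the difference was 0.22 (SE 0.25, adjusted p = 0.435), and 0.99 (adjusted p = 0.00128) under the stricter cell filter.

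*Enpep*, which removes the first residue of angiotensin II, had separate epithelial and stromal sources. Its level was 189 ± 13.1 CPM in epithelial, 119 ± 21.5 in stromal, 5.11 in endothelial and 1.23 in immune cells. Epithelial cells held 64.3% ± 7.42 and stromal cells 32.2% ± 6.06 of its UMIs. The epithelial level was 1.59-fold the stromal level (stromal against epithelial, log2 difference −1.04, SE 0.16, adjusted p = 2.91e-05), and ECs were below both (−4.65, SE 0.27, adjusted p = 9.19e-10 against stromal cells, and −5.69, SE 0.26, adjusted p = 3.59e-11 against epithelial cells). Without marked doublets these were −6.43 and −7.51, and without mouse 4 −5.29 and −6.35. Stromal cells exceeded immune cells by 6.52 (SE 0.32, adjusted p = 7.41e-11). Thus the enzyme that makes angiotensin II and the one that trims it had their highest levels in different classes of cell.

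The highest *Enpep* level was in Col13a1-type fibroblast-like cells, the *Tcf21* and *Npnt* expressing fibroblasts of the alveolar wall, with 677, 681 and 761 CPM (706 ± 47.6). AT2-like cells, the surfactant-producing epithelium, came next with 234, 241 and 219 CPM (231 ± 11.1), and pericyte-like cells after them with 109, 142 and 95.7 CPM (115 ± 23.6). These ranges did not overlap. AT1-like cells had 94.5, 97.98 and 62.9 CPM (85.2 ± 19.3) and overlapped the pericyte-like range, and Col14a1-type cells had 66.5, 23.6 and 75.7 CPM (55.3 ± 27.8). The means of the remaining types lay below these, with myofibroblast-like cells at 29.4 ± 5.92 and smooth muscle-like cells at 13.3 ± 3.49 CPM. The myofibroblast-like range (25.8 to 36.2 CPM) overlapped that of Col14a1-type cells.

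Col13a1-type cells exceeded myofibroblast-like cells 24.1-fold (myofibroblast against Col13a1-type, log2 difference −4.68, SE 0.22, adjusted p = 2.20e-23) and Col14a1-type cells 12.8-fold (3.72, SE 0.26, adjusted p = 4.02e-16). Myofibroblast-like cells had less than Col14a1-type cells (−0.96, SE 0.34, adjusted p = 0.0315), a call that was lost under DESeq2, with library size scaling and without mouse 2 or mouse 4. AT2-like exceeded AT1-like cells 2.72-fold (1.73, SE 0.22, adjusted p = 4.65e-09, with 33% of genes called), and pericyte-like exceeded smooth muscle-like cells 8.67-fold (2.94, SE 0.40, adjusted p = 5.35e-08, with 25.3% of genes called). The mean of the mural types was below that of the fibroblast types (−1.45, SE 0.22, adjusted p = 7.83e-07). This does not hold for each type, because the pericyte-like range (95.7 to 141 CPM) lay above those of myofibroblast-like (25.8 to 36.2 CPM) and Col14a1-type cells (23.6 to 75.7 CPM).

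An *Enpep* UMI was in 94.1% ± 0.525 of AT2-like and 76.3% ± 6.98 of Col13a1-type cells, against 0.610% of B-cell-like cells. That order reversed with thinning to 1000 UMIs, to 20.8% ± 0.713 and 46.6% ± 1.68, which is the order of the CPM levels. The AT2-like cells were deeper, with a median of 16193.5 UMIs against 9700.5. In AT1-like cells the share was 29.3% ± 1.59, and 4.80% ± 1.62 after thinning. Most of the AT1-like level came from a cluster of very deep cells (9, 7 and 21 cells in mice 2, 3 and 4, median 35990 UMIs), which had 130, 139 and 102 CPM against 64.9, 31.5 and 3.804 CPM in the other AT1-like cells.

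**Figure D4:**
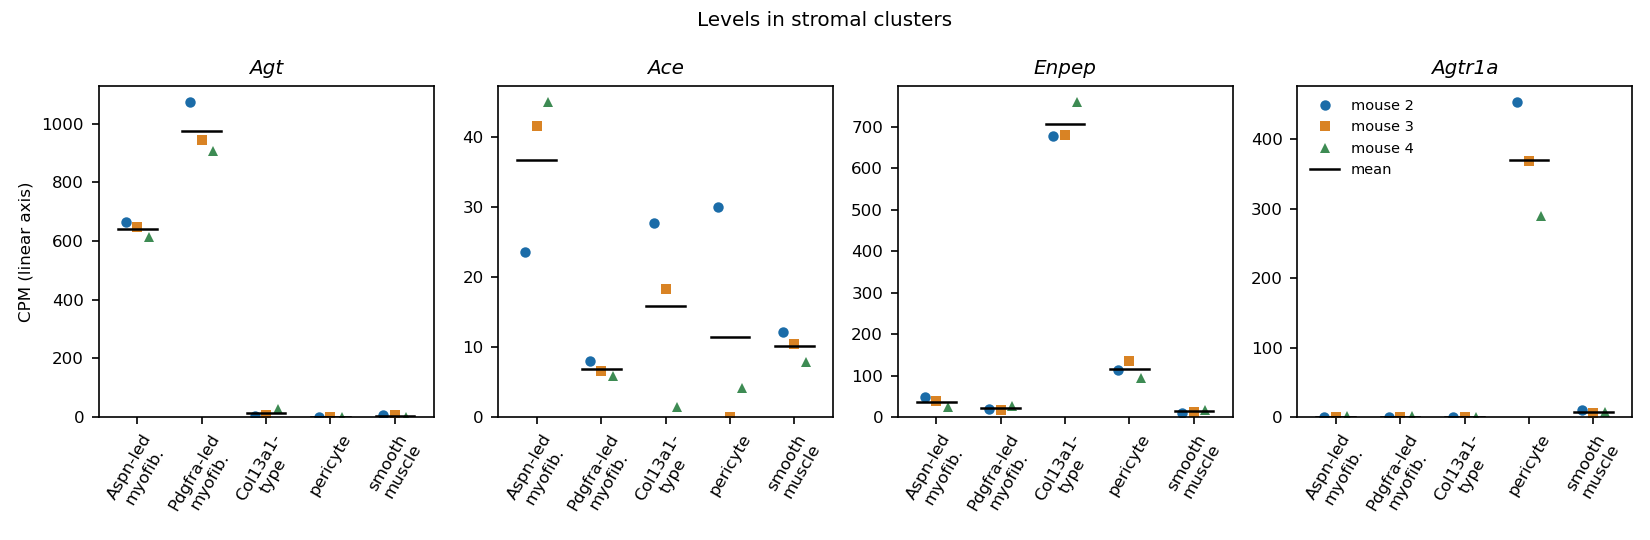
CPM of *Agt*, *Ace*, *Enpep* and *Agtr1a* in each mouse (points) for the Aspn-led and Pdgfra-led myofibroblast-like clusters, Col13a1-type, pericyte-like (the deeper cluster) and smooth muscle-like cells, on linear axes starting at 0. *Agt* is higher in the Pdgfra-led cluster (909 to 1075 CPM) than in the Aspn-led cluster (612 to 664 CPM), *Enpep* peaks in Col13a1-type cells and *Agtr1a* in pericyte-like cells.

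*Agtr1a*, the type 1 receptor, was concentrated in pericyte-like cells, the contractile cells wrapped around capillaries. Their level was 435, 363 and 276 CPM in mice 2, 3 and 4 (358 ± 80.1). Smooth muscle-like cells came next at 7.63 ± 1.56 CPM, with no overlap. The 135 pericyte-like cells held 76.5% ± 9.59 of the *Agtr1a* UMIs and smooth muscle-like cells 9.18% ± 0.990. The pericyte level was 46.9-fold that of smooth muscle-like cells (log2 difference 5.39, SE 0.39, adjusted p = 3.37e-13). DESeq2 gave nearly the same difference, 5.38, with adjusted p = 0.117. The mean of the mural types exceeded that of the fibroblast types by 5.92 (SE 0.48, adjusted p = 4.39e-12). Smooth muscle-like cells alone (6.42 to 9.39 CPM) overlapped the Col14a1-type range (0 to 12.6 CPM).

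At the level of classes *Agtr1a* was 18.7 ± 8.19 CPM in stromal cells against 2.00 in ECs, 0.216 in epithelial and 0.166 in immune cells. ECs against stromal cells gave a log2 difference of −3.28 (SE 0.47, adjusted p = 2.64e-05), which was −4.88 without marked doublets, −2.64 under the stricter filter, −2.56 without mouse 2 and −4.09 without mouse 4. Stromal cells exceeded epithelial cells by 5.90 (SE 0.59, adjusted p = 3.55e-07; 4.88 without mouse 2 and 7.46 without mouse 4). They exceeded immune cells by 6.68 (SE 0.70, adjusted p = 4.68e-07; 5.43 under the stricter filter, 5.89 without mouse 2, 6.03 without mouse 3 and 9.65 without mouse 4). Of the 11 *Agtr1a* UMIs in Car4-type capillary cells, 10 were in 2 cells marked as likely doublets. No *Agtr1a* UMI was found in AT1-like, AT2-like, Col13a1-type, arterial-like or venous-like cells. A UMI was present in 61.5% ± 9.18 of pericyte-like cells, 9.92% ± 1.97 of smooth muscle-like cells and 0.0664% of B-cell-like cells, and after thinning in 28.8% ± 5.42, 0.839% ± 0.217 and 0.0237%. The median pericyte-like cell had 1 UMI and the highest 9. Of the 104 pericyte-like cells with at least 1000 UMIs, 79 had *Agtr1a* (76.0%), and 2 of the 31 shallower ones did. The level scaled to all UMIs was lower in the shallower cells too, at 94.0 against 374 CPM (mice pooled). The reason was not tested.

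*Agtr2*, the type 2 receptor, was close to the limit of detection, with 27 UMIs in 17 cells, and failed the filter on low counts, so it has no test. All of its UMIs were in stromal cells (1.53 ± 0.555 CPM). Against a floor of 3 UMIs over the group, the stromal level was at least 11.5-fold higher than the epithelial, at least 7.13-fold higher than the immune and at least 4.94-fold higher than the endothelial level. Col14a1-type fibroblast-like cells had 22.9, 9.43 and 11.2 CPM (14.5 ± 7.30), in 14 of 100 cells, or 1.71% ± 1.27 after thinning. A smooth muscle-like cell held 4 further UMIs. Within the Col14a1-type cluster, all 21 *Agtr2* UMIs were in the 79 cells without cartilage-gene UMIs and none in the 21 cells with them. *Dcn*, a proteoglycan of fibrous connective tissue, was in 92.9% of the 14 cells with *Agtr2* (4079 CPM). It was also in 81.4% of the 86 cells of the cluster without *Agtr2* (4500 CPM), so it does not set the *Agtr2* cells apart.

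The 5 genes were also described within cell types. The myofibroblast-like cells formed 2 clusters. The Pdgfra-led cluster of 355 cells had 1075, 944 and 909 CPM of *Agt*, and the Aspn-led cluster of 451 cells had 664, 648 and 612 CPM. *Ace* ran the other way, at 8.02, 6.61 and 5.88 CPM in the Pdgfra-led and 23.6, 41.6 and 45.0 CPM in the Aspn-led cluster. In neither gene did the clusters overlap. *Ace* was detected in 113 of 451 Aspn-led cells, 110 of which also had *Agt*, and in 23 of 355 Pdgfra-led cells, all with *Agt*. These are clusters of the same cells, so no test is given.

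Pericyte-like cells held both the type 1 receptor and the enzyme that trims its ligand. Of the 135 cells, 81 had *Agtr1a*, 55 had *Enpep* and 44 had both, and 79.2%, 85.7% and 76.5% of the *Enpep* cells of mice 2, 3 and 4 had *Agtr1a*. Detection of any gene rises with depth, so these shares were not read as a link between the genes. The same holds for the pairs of genes counted in the same cells below. In the deeper pericyte-like cluster the levels were 454, 368 and 289 CPM for *Agtr1a* and 114, 136 and 95.0 CPM for *Enpep*.

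Genes with a like pattern were ranked by Pearson's r of log2(mean CPM + 1) over the 21 types among 13719 genes, as a description over types that share their mice. For *Ace* the most alike were *Fam181b* (0.877), *Ptprb* (0.875), an endothelial phosphatase, *Zkscan4* (0.870), *Plvap* (0.867), a protein of endothelial fenestrae and caveolae, and *Layn* (0.867). For *Agt* they were *Ndp* (0.900), *Prss35* (0.896), *Megf10* (0.892), *Cacna2d3* (0.888) and *Adgrg2* (0.886). *Agtr1a* was closest to *Vtn* (0.954), *Fam101a* (0.913) and *Trpc6* (0.885), a cation channel that is also among the pericyte markers, and was also close to *Adcy8* (0.865). *Enpep* was closest to *Proca1* (0.929), *AI464131* (0.909), *Gm19426* (0.908), *Gpam* (0.896), an enzyme of glycerolipid synthesis, and *Dpyd* (0.896). The genes nearest to *Agtr2* were *Acan* (0.986), *Cilp2* (0.982), *Sfrp5* (0.972), *3110079O15Rik* (0.967) and *Ihh* (0.966), among them cartilage genes, although *Agtr2* and cartilage-gene UMIs lay in different cells of the Col14a1-type cluster. Among the 5 genes r ran from −0.028 to 0.445, the highest being *Agt* with *Enpep*.

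Of 19 other genes of the pathway, 13 passed the filter on low counts. Against stromal cells ECs were higher in 3 and lower in 4 of the 13, against epithelial cells higher in 4 and lower in 5, and against immune cells higher in 3 and lower in 7, where 55.7%, 66.4% and 69.4% of all genes were called. Stromal cells were higher in 5 and lower in 4 against epithelial cells, and higher in 4 and lower in 6 against immune cells, where 67.3% and 76.4% of all genes were called. These counts lie near the shares over all genes, so nothing about the pathway is read from them. The genes lower than in immune cells include *Cma1* and *Cpa3*, with 622 of 678 and 410 of 517 UMIs in 1 cell. Renin (*Ren1*) had 5 UMIs in the lung cells of named types, *Agtr1b* 10, the angiotensin-(1-7) receptor *Mas1* 1 and *Mrgprd* 0, so at this depth the cascade's first enzyme and these receptors could not be assigned to a type.

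**Figure D5:**
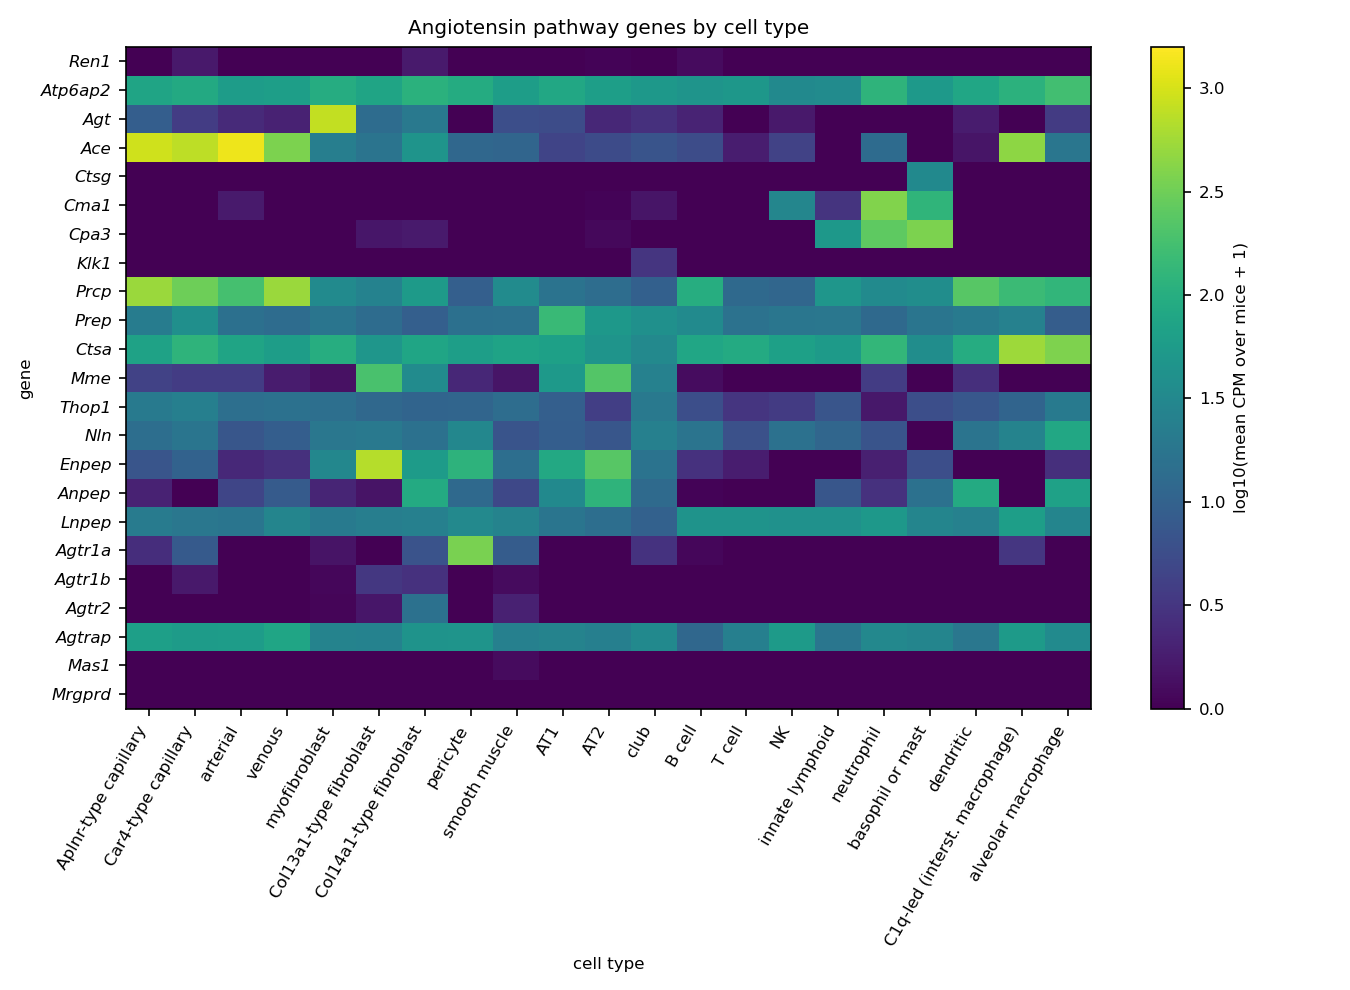
Heat map of log10(mean CPM over 3 mice + 1) for the 5 genes and other pathway genes in the 21 cell types. *Prcp* follows the endothelial types, *Mme* is strongest in AT2-like and Col13a1-type cells, and *Ren1*, *Mas1*, *Mrgprd* and *Agtr1b* are near 0 throughout.

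The other enzymes that shorten angiotensins had several patterns. *Prcp*, a carboxypeptidase that shortens angiotensin II, was at 488, 546 and 525 CPM in Aplnr-type and 341, 326 and 268 CPM in Car4-type capillary cells. In venous-like ECs it was at 616, 562 and 410 CPM. It was higher in ECs than in stromal cells (log2 difference 3.64, SE 0.11, adjusted p = 1.29e-12) and higher in Aplnr-type than in Car4-type cells (0.77, SE 0.15, adjusted p = 2.32e-04). The mean of the capillary types was above that of arterial-like and venous-like ECs (edgeR, 0.32, SE 0.12, adjusted p = 0.0389). Of 528 Aplnr-type cells 502 had *Ace*, 443 had *Prcp* and 433 had both, which was not read as a link either.

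*Mme*, the endopeptidase neprilysin, was at 203, 233 and 217 CPM in AT2-like and 143, 211 and 214 CPM in Col13a1-type cells. It was lower in myofibroblast-like than in Col13a1-type cells (−8.45, SE 0.34, adjusted p = 6.89e-25) and higher in AT2-like than in AT1-like cells (2.23, SE 0.19, adjusted p = 8.68e-14). Of the 1042 AT2-like cells, 980 had *Enpep*, 962 had *Mme* and 917 had both. With each gene this common, the overlap was not read as a link. *Anpep*, aminopeptidase N, which acts after *Enpep* on the trimmed peptide, was at 121, 125 and 110 CPM in AT2-like cells and 99.8, 95.9 and 72.9 CPM in Col14a1-type cells. It was lower in Col13a1-type than in Col14a1-type cells (−7.37, SE 0.64, adjusted p = 2.90e-13), the opposite of the *Enpep* difference. *Prep*, prolyl endopeptidase, was higher in AT1-like than in AT2-like cells (AT2 against AT1, −1.31, SE 0.16, adjusted p = 7.93e-10). *Lnpep*, an aminopeptidase that also binds angiotensin IV, was lower in ECs (−1.26, SE 0.16, adjusted p = 4.09e-06) and in stromal cells (−1.01, SE 0.14, adjusted p = 1.21e-05) than in immune cells, where *Ace* and *Enpep* were low.

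*Agtrap*, which promotes internalisation of the type 1 receptor, was higher in ECs than in stromal cells (1.04, SE 0.12, adjusted p = 2.62e-06), although the receptor gene was higher in stroma.

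Within the compartments fewer pathway genes were called, as were fewer of all genes (8.36% to 33%, against 55.7% to 76.4% between classes), so the fall is not a result about the pathway. Aplnr-type against Car4-type capillary cells had 1 higher and 1 lower of 13 (8.36% of all genes called). Capillary against arterial-like and venous-like ECs had 2 and 1 (22.4%). Myofibroblast-like cells had 1 and 1 against Col13a1-type cells (29.3%) and 0 and 4 against Col14a1-type cells (24.2%). Col13a1-type against Col14a1-type cells had 1 higher and 5 lower (21.1%), and pericyte-like against smooth muscle-like cells 2 and 1 (25.3%). Mural against fibroblast types had 0 and 2 (24.7%), and AT2-like against AT1-like cells 3 and 1 (33%). No result about the pathway is read from these counts.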

How the data were processed

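The submitters' notes name Cell Ranger 3.0.2 and mm10, and the authors deposited, for each mouse, 1 matrix of unnormalized UMI counts (10x 3′ v3). From these counts, cells with under 200 genes or over 20% mitochondrial UMIs were left out (2002 cells). Cells were clustered with Seurat 5.3.0 and sctransform 0.4.2 (3000 variable genes without the 5 genes, 30 components, resolution 0.8). Clusters were named from fixed marker lists where the mean log2 fold reached 1 and 3 markers were in at least 10% of cells, thresholds set after the clusters were seen. Likely doublets were marked with scanpy 1.11.5 at 0.8% per 1000 cells (156 in all) and kept in the main results. Raw counts were summed per mouse and class or type (at least 10 cells) and tested with edgeR 4.0.16 (quasi-likelihood test, TMM, filterByExpr, all groups in one fit, Benjamini-Hochberg adjustment over all genes, threshold 0.05), in R 4.3.3. DESeq2 1.42.0 was an alternative. Of the comparisons of a member, only the 32 with at least 100 UMIs are used, a limit chosen after seeing the data. The other 20 are given only as a count. Named genes were the 5 genes, the 19 pathway genes, the type markers and the 5 most alike genes, of which a pathway gene and a most alike gene are not reported here. The genes, lists and tests were chosen with earlier results of these data known. Sums of all types came from the same 3 animals, which pairs them by mouse. Correlations of same-mouse deviations ran from −0.0618 to 0.27 over 18 pairs of classes and from −0.13 to 0.299 over 570 pairs of types. The edgeR fit was tested on simulated counts with a known change.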

Additional observations from a re-analysis of the deposited data

Results flagged for a closer look

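Some transcripts of these genes lay in cells that no comparison used. The unnamed cluster led by *Hpgd*, with *Sox7*, *Epas1* and *Sox18* also among its leading genes, had 44 *Ace* UMIs in 42 of 452 cells (97.8 CPM). Its best marker list was the arterial one, at a mean log2 fold of 0.534, and its median depth was 843.5 UMIs. The endothelial class does not include it. The unnamed cluster led by *Uchl1* had 14 *Agt* UMIs in 11 of 159 cells (42.4 CPM) and 4 *Ace* UMIs in 3 cells. The dividing cluster led by *Top2a* had 416 *Ace* UMIs in 28 of 142 cells (215 CPM), 150 *Enpep* UMIs in 31 cells (77.5 CPM) and 10 *Agt* UMIs in 1 cell. In that cluster the 64 cells with most endothelial marker UMIs held 84.1% of the *Ace* UMIs and the 31 cells with most epithelial marker UMIs held 85.3% of the *Enpep* UMIs. The 2002 cells left out by the filter had 176 *Ace* UMIs in 91 cells, 86 *Enpep* UMIs in 47 cells, 21 *Agt* UMIs in 10 cells and 12 *Agtr1a* UMIs in 9 cells. No group difference was tested on these counts, and they were not compared with the background in B-cell-like cells.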

How the results depend on the processing

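Of 415 recomputed values of the 32 tests, 394 had an unchanged sign and call, 16 were no longer called, 4 became called and 1 changed direction. The call of *Agtr1a* in pericyte-like against smooth muscle-like cells was lost under DESeq2 (5.38), as were those of *Enpep* (−1.003) and *Ace* (−1.14) in myofibroblast-like against Col14a1-type cells and of *Ace* in Col13a1-type against Col14a1-type cells (−1.53). With library size scaling the *Enpep* and *Ace* differences between myofibroblast-like and Col14a1-type cells were −0.80 and −1.01, no longer called. For *Ace* in mural against fibroblast types the call was lost without marked doublets (−1.29) and at resolution 0.4 (−1.05). *Ace* became called in stromal against immune cells under the stricter filter (0.99), in Aplnr-type against Car4-type capillary cells without marked doublets (0.51) and with only those types in the fit (0.29), and in myofibroblast-like against Col13a1-type cells without marked doublets (3.23). Leaving out each mouse gave, for *Ace*, −2.09 to −1.03 in Col13a1-type against Col14a1-type, −1.28 to −1.03 in myofibroblast-like against Col14a1-type, −2.32 to −0.89 in mural against fibroblast types and −0.24 to 1.06 in myofibroblast-like against Col13a1-type cells, where the negative value came without mouse 4. It gave −1.40 to −0.56 for *Enpep* in myofibroblast-like against Col14a1-type cells and −6.79 to −5.15 for *Agt* in mural against fibroblast types. Causes were not tested.

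The *Agt* share in stroma was 98.7% under the stricter filter and 99.3% without marked doublets. *Enpep* in pericyte-like cells was 80.9 CPM under the stricter filter, and *Ace* in Aplnr-type cells was 983 CPM at resolution 0.4. Of the 20 comparisons with under 100 UMIs 7 were called, against 4 under the stricter filter, 2 without marked doublets, 5 under DESeq2, 8 at resolution 1.2, 8 with library size scaling, 10 with no filter on low counts and 0 to 7 with each mouse left out. With only the compared groups in the fit 1 of the 20 could be tested and 0 were called. In the main fit 8.36% to 69.4% of all genes were called in the comparisons that these 20 belong to, so nothing is read from these counts. With the mouse as a replicate block no call changed: *Ace* in ECs against stromal cells was 5.35, *Agt* in myofibroblast-like against Col13a1-type cells 5.93 and *Agtr1a* in pericyte-like against smooth muscle-like cells 5.39. Counts were low for *Agtr2* (27 UMIs) and for *Agtr1a* outside mural cells, and whether depth set them was not tested. For *Agtr1a*, the count of 0 allowed up to 0.216 CPM in AT2-like and 1.64 CPM in Col13a1-type cells (exact Poisson limits). The mean in pericyte-like cells was 358 CPM.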

Other observations

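The chymase and mast-cell protease genes of the pathway list lay in very few cells. *Cma1*, mast-cell chymase, which can also form angiotensin II, had 622 UMIs in 1 cell of the neutrophil-like cluster (mouse 3), 36 UMIs in 23 NK-like cells and 15 UMIs in 1 basophil- or mast-like cell. *Cpa3*, a mast-cell carboxypeptidase, had 410 UMIs in 1 cell of the neutrophil-like cluster and 79 UMIs in 24 of 44 basophil- or mast-like cells. The neutrophil-like level of each gene therefore rests on 1 cell.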
